A study of Mus musculus with 12 samples.

Results

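Collagens are the main structural proteins of cartilage and bone, and the mRNA of their chains was measured here in murine hip cartilage before and after injury. Members were taken as all probes of the deposited normalized table whose gene symbol has the form Col, a number, a, and a number. The pattern was met by 58 of 21004 probes. Of these, 54 probes belong to 31 collagen chain genes (of 15424 gene symbols in the table). The other 4 probes belong to Col4a3bp, an older symbol of Cert1, which encodes a ceramide transfer protein and no collagen, and they were counted apart. The chains were grouped as cartilage chains (14 probes of 6 genes), other fibrillar chains (12 probes of 8 genes), basement membrane chains (8 probes of 6 genes) and the remaining chains (20 probes of 11 genes). Of the 54 probes, 40 were detected on all 12 arrays, and the fewest arrays on which a member was detected was 3.

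RNA of hip cartilage from C57BL6 mice, labelled as 4 to 6 weeks of age, was hybridized to 12 Illumina mouse BeadChips with 3 arrays each for control and injured WT hips and for control and injured Mapk9 KO hips. Mapk9 encodes a c-Jun N-terminal kinase, and the labels give the knockout genotype without naming the allele or the cells it affects. Injury was avulsion of the femoral epiphysis of freshly culled mice. Controls were frozen at once, whereas the injured tissue stayed in culture for 4 h, so injury and culture cannot be told apart in any comparison below, and each replicate pooled the hips of several mice. The methods do not describe the Mapk9 KO arrays, and the pooling and the handling were taken to be the same for them.

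Collagen molecules are trimers of chains that wind into a triple helix, and the helix needs a regular repeat of glycine, the smallest residue. Type II collagen, joined by types IX and XI, forms the fibrils of hyaline cartilage, and type X marks hypertrophic chondrocytes of the growth plate. Types I, III and V form the fibrils of bone, tendon, ligament and perichondrium, type IV forms the sheet of basement membranes, and type VI forms beaded filaments in the matrix around chondrocytes and other cells. Chains are hydroxylated and glycosylated in the endoplasmic reticulum (ER), trimmed by proteinases outside the cell and crosslinked by lysyl oxidases.

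Each value rests on a 50-base probe, and a few of the probe sequences are given because genes with several probes did not always give the same result. The glycine repeat can be read directly in the letters of some probes. A glycine codon (GGN) at every ninth base was found in 2 of the 54 collagen probes (3.70%) and in 3 of all 21004 probes (0.0143%). In these sequences the glycine codons are in capitals:

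Col11a1 ILMN_2606039: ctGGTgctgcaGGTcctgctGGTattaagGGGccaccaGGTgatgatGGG
Col6a3 ILMN_2716023: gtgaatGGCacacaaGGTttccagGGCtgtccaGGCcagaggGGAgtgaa

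Some probes of a gene overlap and so do not count as separate measurements. For Col2a1, 44 bases were shared by the probes below, and for Col9a1, 49 bases. The shared bases are in capitals:

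Col2a1 ILMN_2759144: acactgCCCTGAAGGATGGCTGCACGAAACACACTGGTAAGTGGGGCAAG
Col2a1 ILMN_2759142: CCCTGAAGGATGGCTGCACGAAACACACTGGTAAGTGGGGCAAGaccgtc
Col9a1 ILMN_2706692: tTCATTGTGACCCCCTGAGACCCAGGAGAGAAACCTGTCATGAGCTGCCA
Col9a1 ILMN_2706693: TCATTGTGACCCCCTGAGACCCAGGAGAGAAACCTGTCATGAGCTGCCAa

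For Col10a1, Col11a1 and Col1a1, 1 probe each is printed as an example of a probe without the glycine repeat, with no capitals:

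Col10a1 ILMN_2675388: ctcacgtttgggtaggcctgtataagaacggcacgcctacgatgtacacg
Col11a1 ILMN_2776931: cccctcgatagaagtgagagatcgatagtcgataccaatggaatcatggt
Col1a1 ILMN_2687872: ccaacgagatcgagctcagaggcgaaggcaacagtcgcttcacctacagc

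All values below are deposited vsn log2 signals, so that a difference of 1 is a 2-fold change. A probe was called when its fold change was above 2 and its adjusted p-value under 0.05 (limma, Benjamini-Hochberg over all 21004 probes), and a gene was counted when at least 1 of its probes was called. Probes differ in how strongly they bind, so levels are compared between arrays and not between probes. Mapk9 itself was lower in Mapk9 KO than in WT control arrays, with a log2 difference of -1.57 (adjusted p = 0.0151) at a probe detected on all 12 arrays, and its second probe was undetected on every Mapk9 KO array (adjusted p = 0.00244). Between 16930 and 18969 probes were detected per array. The WT control arrays varied most: the SD between arrays averaged 0.59 log2 over the 54 collagen probes in WT control, 0.33 in Mapk9 KO control, 0.30 in WT injured and 0.28 in Mapk9 KO injured. WT control replicate 2 was the lowest of its group at 38 of the 54 probes, Mapk9 KO control replicate 3 at 35 and WT injured replicate 1 at 33. In Mapk9 KO injured no array was lowest at more than 21. The tissue held RNA of other cells, and all 10 skeletal muscle markers fell after injury in both genotypes. The summed log2 level of a marker list is the log2 of the summed signals of its genes, to which the brightest genes add most. For skeletal muscle this level went from 16.01 to 16.37 in WT control to 12.75 to 14.88 in WT injured arrays, and from 16.59 to 17.29 to 13.15 to 14.69 in Mapk9 KO. The part of this in the collagen results was not tested, and in pooled tissue fewer cells of a type and less RNA per cell cannot be told apart.

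Injury moved the collagen genes in both directions. In WT, 5 of the 31 genes rose (Col9a1, Col9a2, Col10a1, Col6a2 and Col27a1), 8 fell (Col1a2, Col5a2, Col8a1, Col8a2, Col11a1, Col13a1, Col14a1 and Col24a1; 7 without Col8a2 when the replicate number was a block) and 18 were not called. Over all genes, 8.36% rose and 8.25% fell in WT. In Mapk9 KO, 9 of the 31 genes rose (Col11a1, Col4a5, Col6a1 and Col6a3 beside the 5 of WT), 8 fell (Col1a1 in place of Col11a1) and 14 were not called, against 10.6% and 10.4% of all genes. Col11a1 was counted through different probes in WT and Mapk9 KO. These shares of all genes are also the background of every count of called genes in the groups and lists of this report, many of which are small. The median change over the 54 probes was -0.20 in WT and -0.12 in Mapk9 KO, where the median of all probes was -0.02 in each.

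Among the cartilage chains, type X and type IX collagen rose in both genotypes. In WT, 3 of the 6 genes rose and 1 fell, and in Mapk9 KO 4 rose and none fell. Col11a1 is both the gene that fell in WT and the gene added in Mapk9 KO, called through different probes, as given below. The median over the 14 probes was 0.76 in WT and 1.28 in Mapk9 KO. Type II collagen did not pass the threshold in either genotype.

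Col10a1, the chain of hypertrophic chondrocytes, changed most among the cartilage chains in WT. Its signal was 11.04, 9.73 and 10.93 on the WT control arrays and 13.39, 13.00 and 13.23 on the WT injured arrays. In Mapk9 KO it was 10.34, 10.10 and 9.65 on the control arrays and 13.52, 13.48 and 13.57 on the injured arrays. Every injured array lay above every control array in both genotypes. Col10a1 rose by 2.64 ± 0.33 (SE) log2 in WT (6.25-fold, adjusted p = 0.000356 by limma) and by 3.49 ± 0.20 in Mapk9 KO (11.3-fold, adjusted p = 5.69e-07). Leaving out any 1 array kept the WT change between 2.22 and 2.88.

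Type IX collagen sits on the surface of type II fibrils, and both of its measured chains rose. Col9a2 was at 12.59, 11.75 and 12.43 on the WT control arrays and at 13.64, 13.94 and 13.85 after injury. The Mapk9 KO arrays gave 12.43, 12.58 and 11.54 for control and 13.51, 13.81 and 13.33 for injured hips. No injured array reached down to a control value. Col9a2 rose by 1.55 ± 0.25 (SE) in WT (adjusted p = 0.00159 by limma) and by 1.37 ± 0.27 in Mapk9 KO (adjusted p = 0.0023). With the methods' t-test the Mapk9 KO change was not called (adjusted p = 0.0586).

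For Col9a1, all 4 probes were called in both genotypes. The probe ILMN_2706693, printed above, was at 7.18, 5.36 and 7.53 on the WT control arrays and at 9.16, 8.33 and 8.81 on the injured ones. In Mapk9 KO it went from 6.54, 6.28 and 5.78 to 9.96, 9.20 and 10.07. WT control replicate 2 was the lowest of all arrays at this probe, with both groups of injured arrays above all controls. The rises in WT were 2.08 for this probe, 1.95 for the probe that overlaps it, and 1.25 and 1.07 for the other probes, with adjusted p-values from limma between 0.0111 and 0.0406. The corresponding rises in Mapk9 KO were 3.54, 3.34, 1.93 and 2.00. At ILMN_2439360, the probe with the highest mean, the WT groups overlapped (8.04 on WT control replicate 3 and 8.01 on WT injured replicate 1). The WT call at ILMN_2439360 was lost without WT control replicate 1 (1.00) or 2 (1.16) or WT injured replicate 2 (0.85) or 3 (1.34), and that at ILMN_2939882 without WT control replicate 1 (1.09) or 2 (0.81) or WT injured replicate 1 (1.13) or 3 (0.74). That at ILMN_2706692 was lost without WT injured replicate 1 (1.82) or 3 (1.83), while ILMN_2706693 stayed called with any array left out. With neqc values of all probes of the array or with the methods' t-test, no Col9a1 probe was called in WT (adjusted p = 0.0659 and 0.148 at ILMN_2706693). Without WT control replicate 2, at which neither of the overlapping probes was detected, the WT rises were 1.41 at ILMN_2706693 and 1.25 at ILMN_2706692. In Mapk9 KO, 1 of 3 control arrays was also undetected at these probes.

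**Figure D1:**
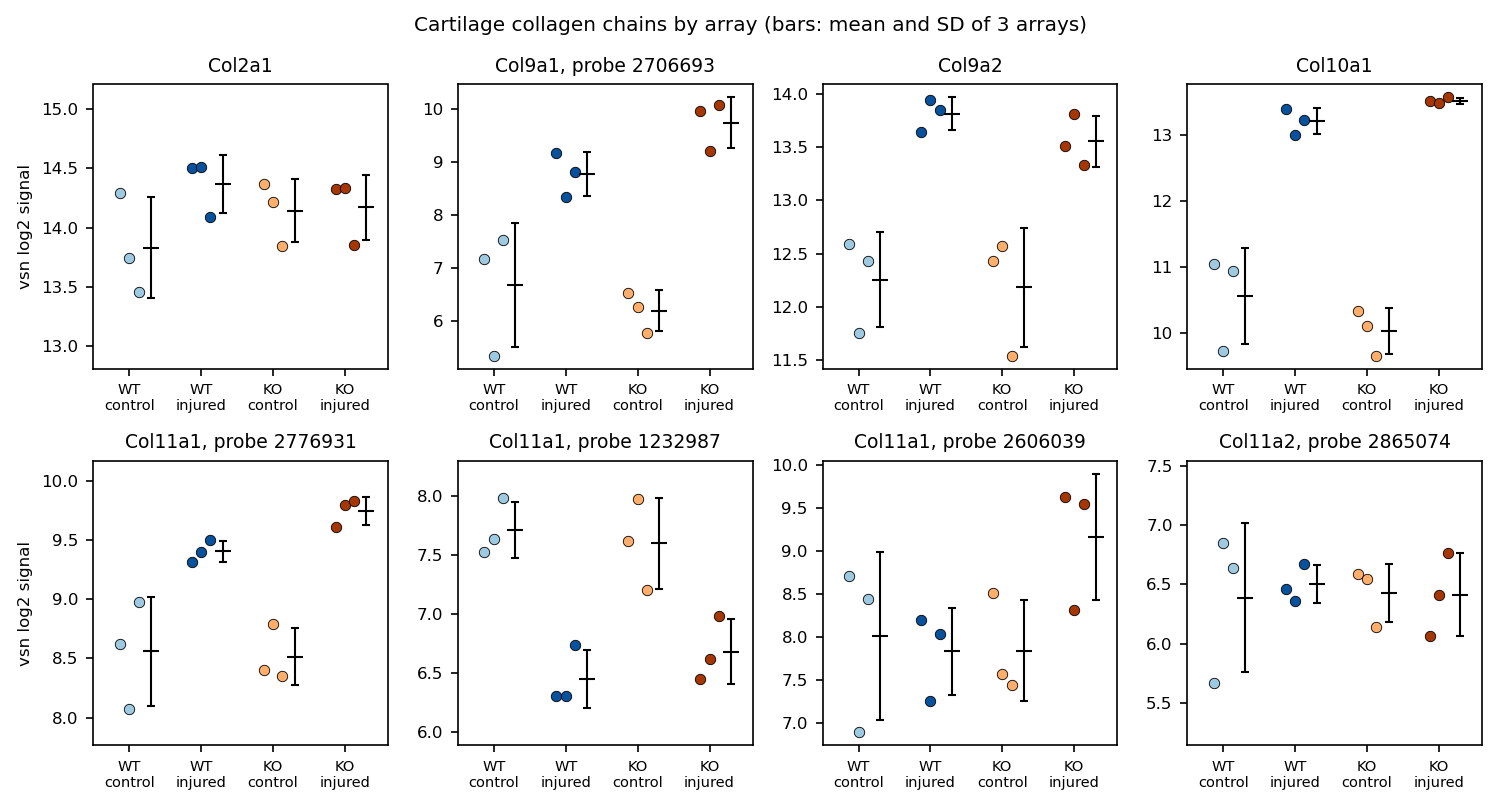
Signal of cartilage collagen chains on each array (y axis, vsn log2 signal; x axis, the 4 groups), with points for the 3 arrays of a group and a bar for their mean and SD. Col10a1, Col9a2 and the Col9a1 probe shown (ILMN_2706693) lie higher on every injured array than on any control array, Col2a1 overlaps between groups, and the 3 Col11a1 probes move in different ways.

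Type II collagen, the chain that forms the body of cartilage fibrils, had 3 probes. The probe with the highest mean (ILMN_2759142) was at 14.29, 13.74 and 13.46 on WT control and at 14.51, 14.52 and 14.09 on WT injured arrays, and these values overlapped. The difference was 0.54 (95% CI -0.02 to 1.10, adjusted p = 0.15 by limma) in WT and 0.03 (95% CI -0.44 to 0.49) in Mapk9 KO. The overlapping probe ILMN_2759144 gave 0.68 in WT with an adjusted p of 0.0474, which is below a 2-fold change, and 0.09 in Mapk9 KO. The third Col2a1 probe gave 0.43 in WT and -0.14 in Mapk9 KO. These spots were among the brightest of the arrays. Before normalization the intensity at ILMN_2759142 lay between 61.1% and 97.1% of the brightest spot of its array, at ILMN_1246054 between 72.8% and 87.0%, and at ILMN_2759144 between 40.5% and 72.6%. The part of this ceiling in the small differences of Col2a1 was not tested.

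Type XI collagen is built into the core of type II fibrils, and the 3 probes of Col11a1 did not move together. The probe ILMN_2776931, which starts at base 737 of the transcript, was at 8.62, 8.07 and 8.98 in WT control and at 9.32, 9.40 and 9.50 in WT injured arrays. It differed by 0.85 in WT (adjusted p = 0.0304 by limma, under 2-fold and so not called; 1.06 and called without WT control replicate 3) and rose by 1.23 in Mapk9 KO (adjusted p = 0.000412). At ILMN_1232987, which starts at base 1999, the signal went from 7.53, 7.64 and 7.98 to 6.31, 6.31 and 6.74 in WT, a fall by 1.26 (adjusted p = 0.00254), and the difference in Mapk9 KO was -0.91 (adjusted p = 0.00953). The probe on the triple helix, ILMN_2606039 at base 4028, gave -0.18 in WT (adjusted p = 0.805) and a rise by 1.32 in Mapk9 KO (adjusted p = 0.0161, with 1 control array among the injured values). This call was lost without Mapk9 KO control replicate 2 (1.19) or 3 (1.12) or Mapk9 KO injured replicate 1 (1.09) or 3 (1.13). The Mapk9 KO difference at ILMN_1232987 was called without Mapk9 KO control replicate 3 (-1.11) or injured replicate 3 (-1.06). The gene therefore counts among those that fell in WT and among those that rose in Mapk9 KO, through different probes. Whether the probes read different transcripts of the gene was not tested.

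Col11a2, the partner chain of Col11a1, was not called. Its probe ILMN_2865074 gave 0.11 (95% CI -0.55 to 0.77) in WT and -0.01 (95% CI -0.50 to 0.47) in Mapk9 KO. Its other probe was detected on 2 of 3 arrays in each control group and on no WT injured array, where it was at least 1.46-fold lower (adjusted p = 0.137 by limma). In Mapk9 KO, with 1 injured array detected, it gave -0.74 (adjusted p = 0.0919). It was called in WT without WT control replicate 2 (adjusted p = 0.00668) and in Mapk9 KO without Mapk9 KO control replicate 3 (-1.03).

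Markers of chondrocytes were measured beside these chains. Of 8 measured markers, 5 rose in both genotypes (Acan, Comp, Epyc, Hapln1 and Matn1) and none fell. Matn1, a matrix protein of cartilage that binds type II collagen, rose by 3.16 in WT (adjusted p = 0.000135 by limma) and by 3.07 in Mapk9 KO. Acan, the core protein of aggrecan, rose by 2.03 and by 2.18. The summed log2 level of the list was 15.55 to 16.19 in WT control and 16.40 to 16.64 in WT injured arrays, and 15.56 to 16.40 in Mapk9 KO control and 16.17 to 16.58 in Mapk9 KO injured arrays. Epyc was undetected on all control arrays. The part of a shift in cell content in the collagen changes was not tested.

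Among the fibrillar chains, Col1a2, Col5a2 and Col24a1 fell in both genotypes. In WT these were 3 of 8 genes that fell, and 1 rose (Col27a1). In Mapk9 KO 4 fell, Col1a1 being added, and Col27a1 rose. The median over the 12 probes was -1.17 in WT and -0.99 in Mapk9 KO.

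The chains of type I collagen, the main protein of bone and tendon, did not move alike in WT. Col1a2 was at 13.20, 13.15 and 13.04 on the WT control arrays and at 11.16, 11.66 and 12.17 on the WT injured arrays. In Mapk9 KO it went from 13.14, 13.54 and 12.80 to 10.33, 11.02 and 10.81. The groups did not overlap in either genotype. Col1a2 fell in both genotypes, with changes of -1.46 ± 0.26 (SE) log2 in WT (2.76-fold, adjusted p = 0.0028 by limma) and -2.44 ± 0.24 in Mapk9 KO (5.42-fold, adjusted p = 2.31e-05). With the methods' t-test the WT change was not called (adjusted p = 0.0579).

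Col1a1, whose probe is printed above, was at 14.02, 13.83 and 13.17 on the WT control arrays and at 13.43, 13.67 and 13.90 on the WT injured arrays. In Mapk9 KO the control arrays gave 14.42, 14.09 and 13.60 and the injured arrays 13.10, 13.12 and 12.77. The WT groups overlapped completely, and the Mapk9 KO groups were apart. The difference in WT was -0.01 (95% CI -0.58 to 0.56, adjusted p = 0.983 by limma). In Mapk9 KO Col1a1 fell by 1.04 (adjusted p = 0.00433), and this call was lost without Mapk9 KO control replicate 1 (-0.85) or without Mapk9 KO injured replicate 3 (-0.93). It was also lost with the methods' t-test (adjusted p = 0.0579). The difference between the genotypes was -1.03 ± 0.36 (SE) with an adjusted p of 0.382 over all probes, so a genotype difference was not shown. The Col1a1 intensity lay between 35.5% and 79.0% of the brightest spot of its array, and that of Col1a2 between 6.59% and 65.6%.

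**Figure D2:**
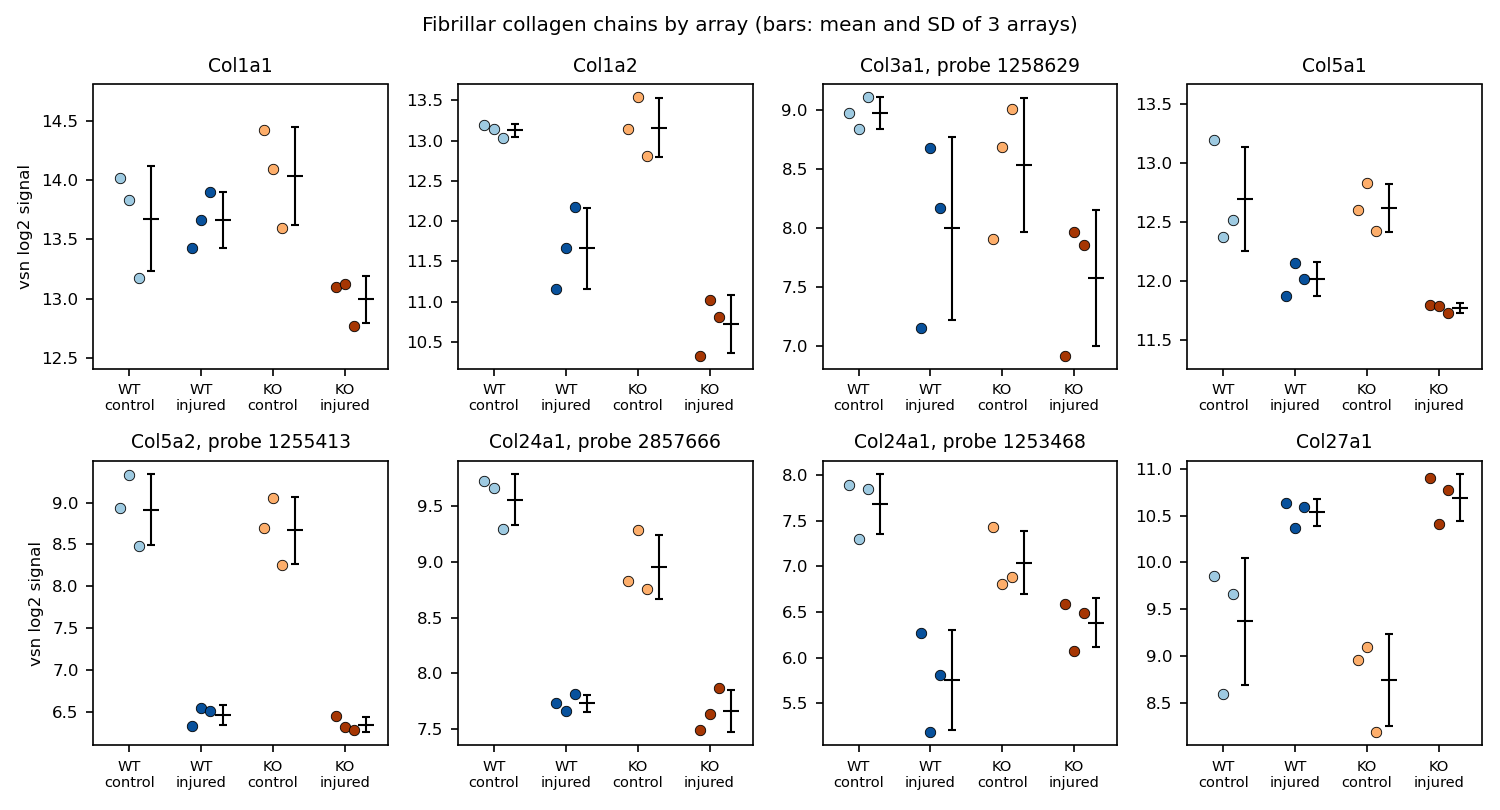
Signal of fibrillar collagen chains on each array (y axis, vsn log2 signal; x axis, the 4 groups), with points for the 3 arrays of a group and a bar for their mean and SD. Col1a2, Col5a2 and Col24a1 lie lower on every injured array than on any control array of the same genotype, Col27a1 lies higher, and Col1a1 overlaps in WT but not in Mapk9 KO.

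Type V collagen sets the diameter of type I fibrils, and its α2 chain gave the largest fall among the fibrillar chains in WT. All 3 probes of Col5a2 were called in both genotypes. At ILMN_1255413 the WT signal went from 8.93, 9.34 and 8.48 to 6.33, 6.55 and 6.50, and the Mapk9 KO signal from 8.70, 9.06 and 8.25 to 6.44, 6.31 and 6.27. The injured arrays lay far below the controls and close together. This probe fell, with changes of -2.46 ± 0.24 (SE) in WT (5.49-fold, adjusted p = 9.98e-05 by limma) and -2.33 ± 0.22 in Mapk9 KO. The other probes fell by 1.53 and 1.37 in WT and by 1.03 and 1.25 in Mapk9 KO. The call of the first of these in Mapk9 KO was lost without Mapk9 KO control replicate 2 (-0.89) or 3 (-0.92).

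The partner chain Col5a1 differed by -0.68 in WT (adjusted p = 0.0691 by limma) and by -0.84 in Mapk9 KO (adjusted p = 0.00317), under 2-fold in each, and its injured arrays lay below all controls of the same genotype. Col5a3 gave -0.29 and -0.53, with adjusted p-values of 0.454 and 0.134. Col3a1, the chain of type III collagen in blood vessels and loose connective tissue, gave -0.97 in WT (adjusted p = 0.0593) and -0.95 in Mapk9 KO (adjusted p = 0.0407) at the probe with the higher mean. It was called in WT without WT injured replicate 2 (-1.31), and in Mapk9 KO without Mapk9 KO control replicate 1 (-1.27) or Mapk9 KO injured replicate 2 (-1.15). The second Col3a1 probe was at 9.02, 5.65 and 8.90 on the WT control arrays, so that its WT difference of -0.87 (adjusted p = 0.442) became -1.98 and was called without WT control replicate 2. In Mapk9 KO this probe gave 0.24 (adjusted p = 0.547).

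Col24a1 and Col27a1 encode fibrillar chains of developing bone and cartilage, and they moved in opposite directions. At Col24a1 ILMN_2857666 the WT signal went from 9.72, 9.66 and 9.29 to 7.73, 7.66 and 7.81, and the Mapk9 KO signal from 8.83, 9.28 and 8.75 to 7.49, 7.63 and 7.87. It fell by 1.82 ± 0.20 (SE) in WT (adjusted p = 0.000188 by limma) and by 1.29 ± 0.20 in Mapk9 KO. The second probe, ILMN_1253468, fell by 1.93 in WT (adjusted p = 0.0012) and gave -0.66 in Mapk9 KO (adjusted p = 0.0377).

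Col27a1 was at 9.85, 8.60 and 9.66 on the WT control arrays and at 10.64, 10.37 and 10.60 on the WT injured arrays. In Mapk9 KO it went from 8.96, 9.10 and 8.19 to 10.90, 10.41 and 10.77, and the groups were apart in both genotypes. Col27a1 rose by 1.16 ± 0.31 (SE) in WT (adjusted p = 0.0203 by limma) and by 1.94 ± 0.25 in Mapk9 KO (adjusted p = 0.000154). The WT call was lost without WT control replicate 2 (0.77), WT injured replicate 1 (1.11) or WT injured replicate 3 (1.13).

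Markers of the cells that make these chains were lower in part. Of 7 measured fibroblast and tendon markers, 3 fell in WT (Dpt, Pdgfra and Scx) and 4 in Mapk9 KO, Thy1 being added, and none rose. Scx, a transcription factor of tendon cells, fell by 1.68 in WT (adjusted p = 0.00075 by limma) and was undetected on all Mapk9 KO injured arrays, where it was at least 3.10-fold lower (adjusted p = 1.05e-05). The summed log2 level of the list was 11.85 to 12.20 in WT control and 10.77 to 11.23 in WT injured arrays, and 11.69 to 12.03 and 10.64 to 10.91 in Mapk9 KO. Of 8 osteoblast markers, 3 fell in both genotypes, among them Sp7, a transcription factor of osteoblasts, by 1.14 in WT and 1.19 in Mapk9 KO, and none rose. Bglap, the gene of osteocalcin, counts among these through its second probe (by 1.69 in WT), while its brightest probe gave 0.33 (adjusted p = 0.321). The summed log2 level of the osteoblast list overlapped between groups (15.38 to 15.86 in WT control and 15.64 to 15.79 in WT injured arrays). The part of these cells in the fall of the fibrillar chains was not tested.

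The basement membrane chains stayed below the threshold in WT, and 1 of their 6 genes rose in Mapk9 KO. Col4a1 and Col4a2, the main chains of type IV collagen, gave 0.11 (95% CI -0.37 to 0.59) and 0.61 (95% CI -0.15 to 1.38) in WT. In Mapk9 KO Col4a1 gave -0.35 (adjusted p = 0.297 by limma), and the interval for Col4a2 was -0.40 to 0.40. Col15a1 and Col18a1, which carry heparan or chondroitin sulfate and lie at basement membranes, differed by -0.40 and -0.29 in WT and by -0.55 and -0.38 in Mapk9 KO at their main probes, none of them called. Col7a1, the chain of anchoring fibrils under epithelia, gave -0.04 in WT and was detected on no Mapk9 KO control array, so no fold is given for Mapk9 KO (adjusted p = 0.127).

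Col4a5, a minor chain of type IV collagen, was the exception. At ILMN_2734755 its signal was 6.42, 6.37 and 6.17 on the Mapk9 KO control arrays and 7.82, 7.59 and 7.80 on the Mapk9 KO injured arrays, and 6.84, 5.89 and 6.44 against 7.39, 6.98 and 7.17 in WT. The groups were apart in both genotypes. The rise in Mapk9 KO was 1.42 ± 0.17 (SE) (adjusted p = 9.13e-05 by limma), and 1.20 at the second probe. With quantile normalization without background correction these values were 0.79 and 0.70, under 2-fold and so not called. In WT the differences were 0.79 (adjusted p = 0.0502) and 0.53 (adjusted p = 0.13). Without WT control replicate 1 the former was 1.02 and called. Of 8 endothelial markers, 1 (Cdh5, the adhesion molecule of endothelial junctions) rose in WT, by 1.13, none was called in Mapk9 KO and none fell. The summed log2 level of this list was 13.10 to 13.70 in WT control and 13.43 to 13.52 in WT injured arrays.

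Among the remaining chains, the chains of type VIII, XIII and XIV collagen fell and parts of type VI rose. In WT 1 of the 11 genes rose and 4 fell, and in Mapk9 KO 3 rose and 4 fell. Type VIII collagen forms short-chain networks in vessel walls and other tissues, and both of its chains fell. Col8a1 at ILMN_2503553 went from 9.28, 9.33 and 8.87 to 7.28, 7.78 and 8.07 in WT. In Mapk9 KO its control arrays lay between 8.33 and 9.18, and no injured array was above 7.79. It fell by 1.45 ± 0.25 (SE) in WT (adjusted p = 0.00233 by limma) and by 1.42 ± 0.27 in Mapk9 KO, and its brighter probe fell by 1.18 (adjusted p = 0.032) and 1.73. With the methods' t-test ILMN_2503553 was not called in WT (adjusted p = 0.0507) or Mapk9 KO (adjusted p = 0.0520), nor was the brighter probe in WT (adjusted p = 0.191). With the replicate number as a block, the adjusted p of the brighter probe in WT was 0.0593, and the call was also lost without some single arrays, the change being -0.85 without WT control replicate 1 and -0.87 without WT injured replicate 1.

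Col8a2 fell by 1.15 (adjusted p = 0.04 by limma) and 1.06 (adjusted p = 0.0419) at its probes in WT and by 1.13 and 1.09 in Mapk9 KO. The dimmer probe, given second, was detected on 2 of 3 WT injured and on 1 of 3 Mapk9 KO injured arrays, so the size of its fall is uncertain. With the replicate number as a block the WT values were no longer called (adjusted p = 0.0633 and 0.0630). The gene also lost its call in WT without WT control replicate 1 or 3 or without any 1 of the WT injured arrays, where the change at the brighter probe was as small as -0.74. In Mapk9 KO the dimmer probe lost its call without Mapk9 KO control replicate 3 (-0.75) or injured replicate 2 (-0.98). Of 5 pericyte and smooth muscle markers, measured beside these vessel-wall chains, Myh11 and Rgs5 fell in WT, and in Mapk9 KO Acta2 fell too and Cspg4 rose. Their summed log2 level was 11.33 to 12.18 in WT control and 11.41 to 11.75 in WT injured arrays, and 12.36 to 12.85 and 11.61 to 11.81 in Mapk9 KO, and Tagln was undetected in every group. Their part in the fall of type VIII collagen was not tested.

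Col13a1, a transmembrane collagen, and Col14a1, a collagen that lies on the surface of fibrils in tendon and skin, both fell. Col13a1 was at 6.80, 7.41 and 6.92 on WT control and at 6.46, 6.93 and 6.83 on Mapk9 KO control arrays, and it was undetected on all injured arrays. It was at least 2.30-fold lower in WT injured (adjusted p = 0.00187 by limma) and at least 1.84-fold lower in Mapk9 KO injured arrays (adjusted p = 0.000425). Col14a1 fell by 1.25 and 1.20 at its probes in WT (adjusted p = 0.0235 and 0.00238) and by 1.56 in Mapk9 KO at the brighter probe, and the dimmer probe was undetected on all Mapk9 KO injured arrays and at least 2.17-fold lower there (adjusted p = 0.000148). The WT call at the brighter probe was lost without either WT control replicate 1 (-0.99) or 3 (-1.06) or without WT injured replicate 1 (-1.14) or 3 (-1.28). Col23a1, another transmembrane collagen, was undetected on all injured arrays and not called. It was at least 1.33-fold lower in WT injured (adjusted p = 0.0947) and at least 1.22-fold lower in Mapk9 KO injured arrays (adjusted p = 0.00161), and was called in WT without WT control replicate 2 (adjusted p = 0.00972).

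Type VI collagen is built from chains encoded by Col6a1, Col6a2 and Col6a3, and in Mapk9 KO each gene was called at 1 of its dimmer probes and not at its brightest. Col6a2 at ILMN_1258759 was at 9.16, 7.79 and 8.78 on WT control and 9.66, 9.79 and 9.51 on WT injured arrays, and went from 8.13, 8.48 and 7.92 to 9.89, 9.60 and 9.72 in Mapk9 KO. It rose by 1.08 ± 0.32 (SE) in WT (adjusted p = 0.0312 by limma) and by 1.56 ± 0.19 in Mapk9 KO (adjusted p = 0.000117). The WT call was lost without WT control replicate 2 (0.69) or without any 1 of the WT injured arrays (1.01 to 1.15). The brighter Col6a2 probe, at 12.32, 9.70 and 11.80 on WT control arrays, gave 0.67 in WT and 0.24 in Mapk9 KO, with adjusted p-values of 0.413 and 0.386.

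Col6a1 rose in Mapk9 KO by 1.61 at its dimmest probe (adjusted p = 0.00103 by limma). The Mapk9 KO controls were at 6.35, 5.86 and 5.76 there, and 2 of 3 were detected, so the size of this rise is uncertain. At the same probe WT control replicate 2 was at 4.28 and the other WT controls at 7.15 and 7.09. The brighter Col6a1 probes gave 0.50 and 0.36 in Mapk9 KO and 0.79 and 0.65 in WT, none called. Col6a3 rose in Mapk9 KO by 1.90 at ILMN_2689207 (adjusted p = 0.000257), while its brightest probe gave 0.57 in Mapk9 KO and -0.19 in WT and its triple helix probe 0.38 and -0.40. The rises of these genes in Mapk9 KO therefore rest on 1 of 3 probes each. Col12a1 and Col16a1 were not called at any probe, with WT differences between -0.40 and -0.20, and Col25a1 was undetected on all WT control arrays and not called. In Mapk9 KO the brighter Col12a1 probe gave -0.62 (adjusted p = 0.0156 by limma), under 2-fold.

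**Figure D3:**
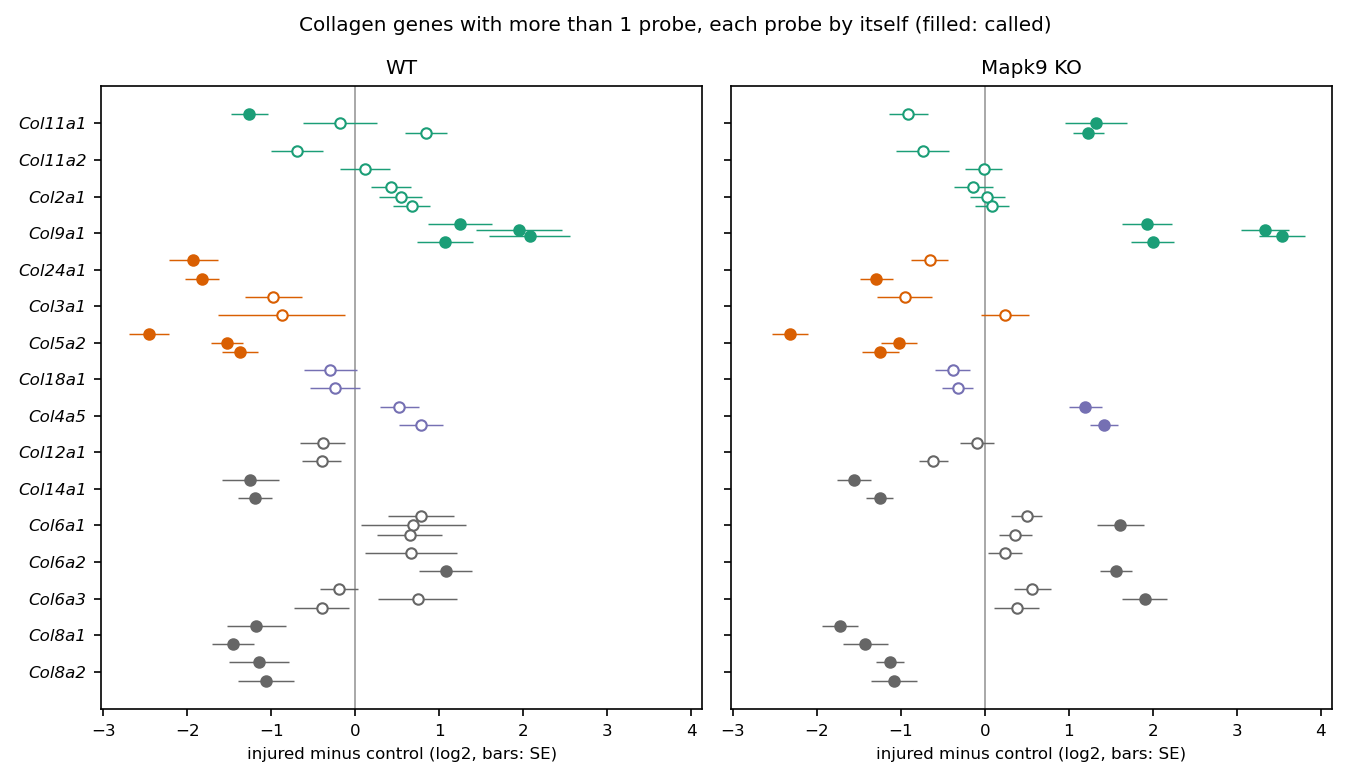
Injury change of each probe (x axis, injured minus control in log2, bars give the SE) for the collagen genes with more than 1 probe, in WT on the left and Mapk9 KO on the right, with filled points for called probes. Probes of Col5a2, Col8a1, Col8a2, Col9a1 and Col14a1 move the same way, whereas Col11a1 has probes on both sides of 0 and Col6a1, Col6a2 and Col6a3 are called at 1 probe each in Mapk9 KO.

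The array also carried collagen probes that the symbols of the normalized table do not show. Of 88 collagen chain probes of 40 genes on the array, 29 were outside the table, and 25 of these were detected on no array and none on more than 2. Col9a3, Col4a3, Col4a4, Col4a6, Col17a1, Col19a1 and Col28a1 had probes only there. A further 5 probes stand in the table under older or provisional symbols and so did not meet the rule, and the values given for them were chosen after they were seen. Col22a1, a collagen of muscle-tendon junctions, was at 13.08, 12.96 and 12.62 on WT control and at 10.31, 10.74 and 11.12 on WT injured arrays. It fell by 2.17 in WT (adjusted p = 0.000239 by limma) with a change of -3.01 in Mapk9 KO (adjusted p = 5.24e-06), beside the fall of all 10 muscle markers given above. The third Col24a1 probe fell by 1.83 in WT and by 1.70 in Mapk9 KO, and the second Col27a1 probe gave 0.90 in WT (adjusted p = 0.0477, under 2-fold) and rose by 1.57 in Mapk9 KO. Col20a1 gave 0.13 and 0.43, not called.

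Of the 4 probes of Col4a3bp, which is no collagen, 2 that share 44 bases rose in WT (by 1.07 and 1.03, adjusted p = 0.00775 and 0.00903 by limma) and 3 in Mapk9 KO (by 1.45, 1.60 and 1.02). The fourth was detected on 1 of the 12 arrays and has no level to compare.

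Genotype was compared in 2 ways. In the control hips, none of the 54 collagen probes was called between Mapk9 KO and WT, where 0.119% of all probes were. The lowest adjusted p was 0.700 (limma) and 4 probes had an unadjusted p under 0.05. The methods' t-test called 0 collagen probes, but it also called 0 of all 21004 probes. Without WT control replicate 3, 358 probes of the whole table were higher and 54 lower in Mapk9 KO, with 0 collagen genes among them. The largest difference was -0.76, at a Col9a1 probe. In the test of whether the injury change differed by genotype, none of the 54 probes passed in the fit without a block (0% of all probes did). The lowest adjusted p was 0.338, and 7 probes had an unadjusted p under 0.05. The share of all probes at that unadjusted p was not counted in either comparison, so these 4 and 7 probes have no background. Without WT control replicate 3, 25 probes of the whole table had a higher and 217 a lower injury change in Mapk9 KO, with 0 collagen genes among them. With the replicate number as a block, 112 of all 21004 probes passed (0.533%), with 1 collagen gene among them (Col24a1, given below).

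The injury changes themselves had the same sign in both genotypes at 44 of the 54 probes, compared with 16239 of all 21004. Each genotype has its own control arrays, so these changes share no sample. Among the 29 probes called in at least 1 genotype, 28 had the same sign and 20 were larger in Mapk9 KO, the exception in sign being Col11a1 ILMN_2606039. Of the 4636 probes of the whole table called in at least 1 genotype, 97.1% had the same sign and 68.7% were larger in Mapk9 KO, so the collagens were close to the background in both counts. All 5 genes that rose in WT also rose in Mapk9 KO (100% of the WT genes and 55.6% of the Mapk9 KO genes), and of those that fell 7 were shared (87.5% of each list). Over all genes, 82.2% of those that rose in WT also rose in Mapk9 KO (64.6% of the Mapk9 KO genes), and 73.3% of those that fell in WT also fell in Mapk9 KO (58.4%). Over the 54 probes the changes correlated with r of 0.90, and over all probes with 0.86. This is a description across probes that share arrays and in part genes. At Col24a1 ILMN_1253468, the arrays were at 7.89, 7.30 and 7.85 for WT control, 6.27, 5.19 and 5.81 for WT injured, 7.43, 6.80 and 6.88 for Mapk9 KO control and 6.58, 6.08 and 6.49 for Mapk9 KO injured. The fall was 1.27 smaller in Mapk9 KO, with an adjusted p of 0.338 from limma and 0.0410 with the replicate number as a block, under which 0.533% of all probes passed. The other Col24a1 probe gave 0.53 for the same difference (adjusted p = 0.542, and 0.351 with the block), and the probe of Col24a1 listed under a provisional symbol gave 0.13 (adjusted p = 0.92). ILMN_1253468 was detected on 1 of 3 WT injured arrays and on all others.

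**Figure D4:**
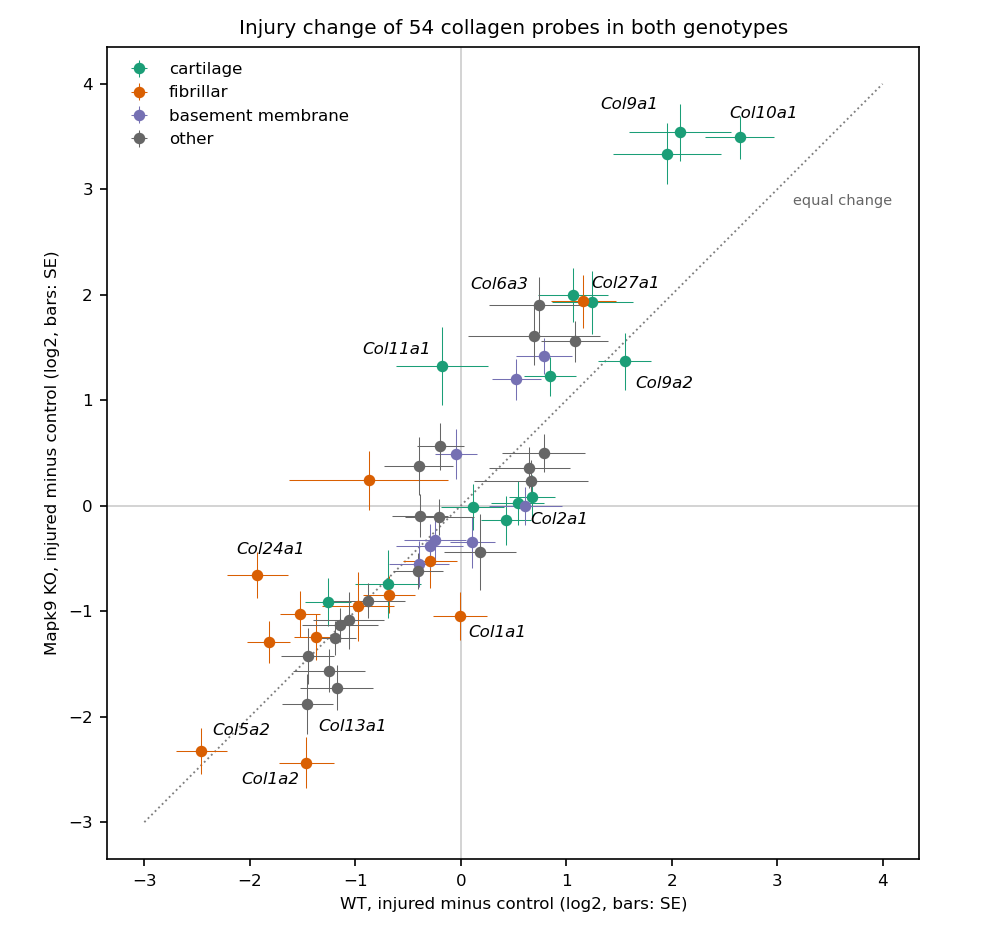
Injury change of the 54 collagen probes in WT (x axis) and Mapk9 KO (y axis), as log2 of injured minus control with SE bars, colored by collagen group, with a dotted line of equal change. Of the 14 cartilage probes 9 lie above 0 in both genotypes and of the 12 fibrillar probes 10 lie below 0 in both, and Col1a1 lies at -0.01 in WT and -1.04 in Mapk9 KO.

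Genes that make, process and bind collagen were read from the same fits, to set them beside the chains. Over all genes, 8.36% rose and 8.25% fell in WT, and 10.6% rose and 10.4% fell in Mapk9 KO. Of 20 measured genes of modification and folding in the ER, 3 rose in WT and 4 in Mapk9 KO, and 1 fell in each. The median was 0.08 in WT and 0.31 in Mapk9 KO. P4ha2, a subunit of the prolyl 4-hydroxylase that stabilizes the helix, rose by 1.28 in WT (11.69 ± 0.36 to 12.97 ± 0.04, SD, n = 3, adjusted p = 0.00266 by limma) and by 1.63 in Mapk9 KO. Colgalt2, a galactosyltransferase of collagen (Glt25d2 in the table), rose by 2.07 in WT (adjusted p = 0.000355) and by 2.36. P3h2, a prolyl 3-hydroxylase (Leprel1 in the table), rose by 1.06 at its main probe and 2.07 at the other in WT, and by 1.89 and 2.63 in Mapk9 KO. P4ha1, another prolyl 4-hydroxylase subunit, rose by 1.88 in Mapk9 KO at its second probe, with 0.54 (adjusted p = 0.0867) at its main probe. In WT P4ha1 was not called at any probe by the rule used here, whereas the paper reports it as upregulated after injury.

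Among the ER genes that fell, Sec23a, a coat protein of the vesicles that export procollagen, did so by 1.79 in WT (adjusted p = 0.00938 by limma), with 0.49 in Mapk9 KO (adjusted p = 0.395). The difference between genotypes was 2.28 with an adjusted p of 0.325, and 0.0329 with the replicate number as a block. Creb3l1, a transcription factor of type I collagen in osteoblasts, fell by 1.32 in Mapk9 KO and gave -0.96 in WT (adjusted p = 0.142). Serpinh1, the collagen chaperone HSP47, gave 0.29 and -0.16, neither called.

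The crosslinking enzymes split into those that rose and those that fell. Of 10 measured genes of procollagen processing and crosslinking, 3 rose and 4 fell in WT, and 4 rose and 4 fell in Mapk9 KO, with medians of -0.20 and -0.50. Loxl2 and Loxl4, lysyl oxidase-like enzymes, rose by 1.42 (adjusted p = 0.00222 by limma) and 1.64 (adjusted p = 0.000297) in WT and by 1.80 and 1.91 in Mapk9 KO. Lox fell by 1.14 in WT (adjusted p = 0.00567) and gave -0.91 in Mapk9 KO (adjusted p = 0.00712), and Loxl1 fell by 1.68 and 2.06. Pcolce2, an enhancer of procollagen C-proteinase, rose by 2.28 in WT (adjusted p = 0.00881) and 2.91 in Mapk9 KO, whereas its paralog Pcolce gave -0.96 in WT (adjusted p = 0.0978) and fell by 1.59 in Mapk9 KO. Adamts2, the N-proteinase of fibrillar procollagens, fell by 1.18 and 1.76. Bmp1, the C-proteinase, fell by 1.15 and 1.05 at its other bright probes in WT and by 1.13 at the former in Mapk9 KO, with -0.81 and -0.79 at its main probe. Adamts3, an N-proteinase of type II procollagen, was called higher in Mapk9 KO (adjusted p = 0.029) but undetected on all Mapk9 KO control arrays, so no fold is given.

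None of 8 collagen receptors was called in WT, and in Mapk9 KO Ddr1, a receptor tyrosine kinase for collagen, rose by 1.02 (adjusted p = 0.0042 by limma). Of 5 collagenases and gelatinases, Mmp13, the collagenase of chondrocytes, fell by 1.5 at 1 of its 3 probes in WT (adjusted p = 0.000827), while its brightest probe gave 0.62 (adjusted p = 0.119). In Mapk9 KO, 3 fell: Mmp2 by 1.21, Mmp14 by 1.12 and Ctsk, the collagen-degrading protease of osteoclasts, by 1.57. Their WT values were -0.67, -0.73 and -0.75, with adjusted p-values of 0.104, 0.0565 and 0.0636.

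Of 6 measured transcription factors of collagen genes, 3 rose in WT and none fell, and 3 rose and 2 fell in Mapk9 KO. The genes that rose were Sox5, Sox9 and Runx2 in each genotype. Sox9, which drives Col2a1 and other cartilage genes, rose by 1.19 in WT (12.40 ± 0.19 to 13.59 ± 0.13, SD, n = 3, adjusted p = 0.0021 by limma) and by 1.54 in Mapk9 KO. Its partner Sox5 rose by 1.59 and 1.84, and Runx2, a factor of hypertrophic chondrocytes and osteoblasts, rose by 1.34 in WT (adjusted p = 0.00766). Runx2 was undetected on all Mapk9 KO control arrays and at least 1.44-fold higher after injury there (adjusted p = 4.43e-05). Mef2c and Sox6 each fell at a second probe in Mapk9 KO, with Mef2c falling by 1.30 at that probe and Sox6 undetected on all Mapk9 KO injured arrays (at least 1.43-fold lower), and their main probes gave -0.55 and -0.73 there. Trps1 was not called.

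**Figure D5:**
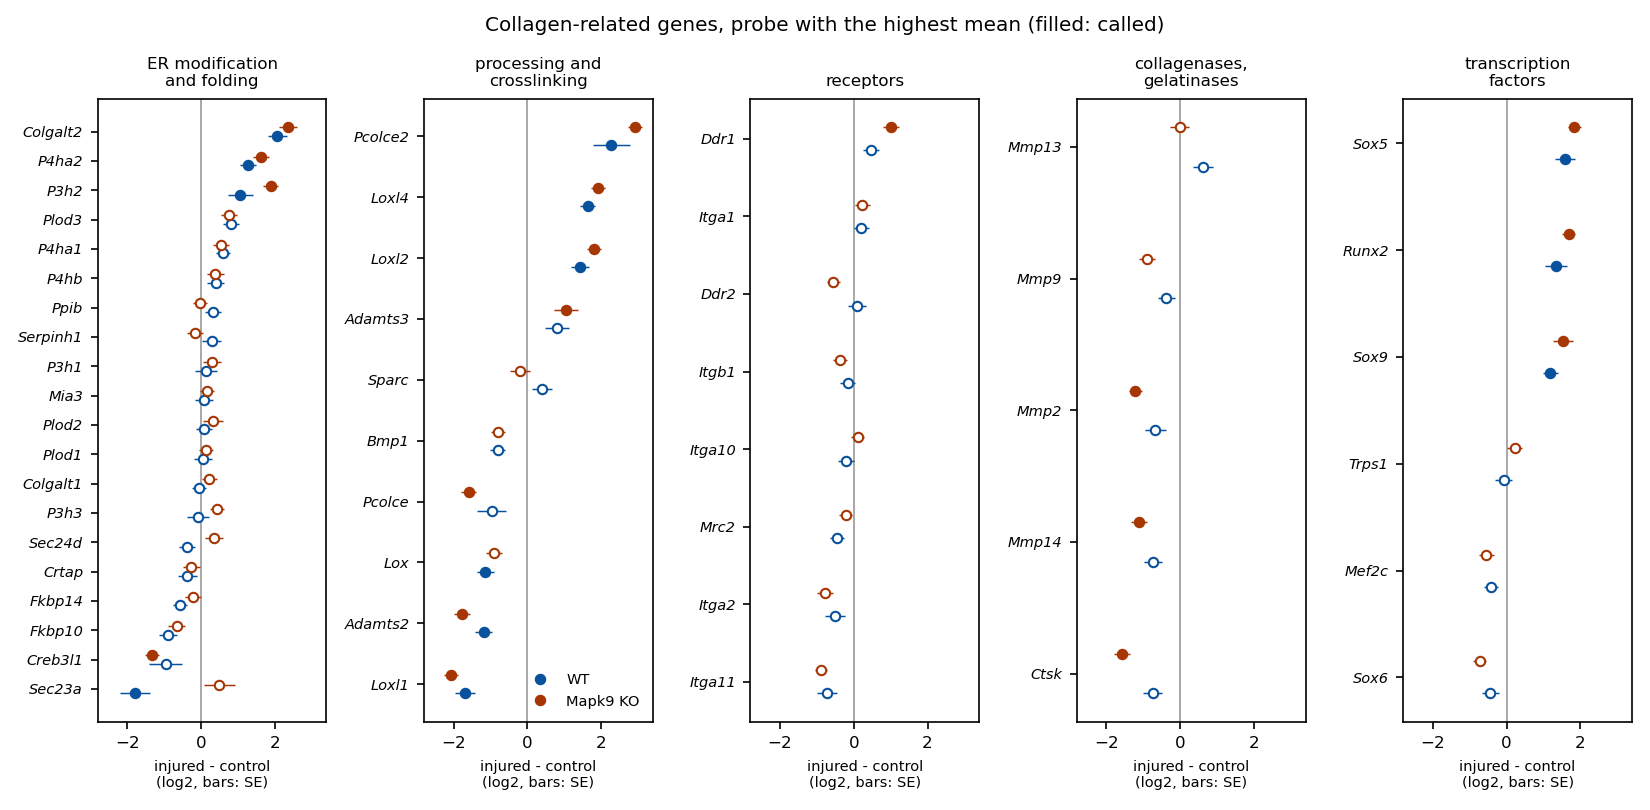
Injury change (x axis, injured minus control in log2, bars give the SE) of genes that modify, process, bind, degrade or transcribe collagen, at the probe with the highest mean per gene, in WT (blue) and Mapk9 KO (brown), with filled points for called changes. Colgalt2, P4ha2, P3h2, Pcolce2, Loxl4, Loxl2, Sox5, Runx2 and Sox9 are called higher in both genotypes, and Loxl1 and Adamts2 lower.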

How the data were processed

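Background was subtracted by the authors from the bead intensities by means of negative controls, and after vsn normalization they deposited log2 values for 21004 probes. They also deposited the intensities of 45281 probes without background correction, each with a detection p-value deposited beside it. Package versions are not given in the sources used here. Detection was taken as a p-value under 0.05.

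From the deposited log2 values, a linear model was fitted to each probe in limma 3.58.1 (R 4.3.3) with moderated variances, and p-values were adjusted by Benjamini-Hochberg across the whole table, using the arrays of the groups compared (all 12 for the interaction). Calls needed more than a 2-fold change at an adjusted p below 0.05, or for the interaction the adjusted p alone. With 3 arrays a group the number of arrays limits the precision. Where a probe was undetected on every array of a group, a bound is given, taken against the lowest signal of a detected probe on each array, or the signal of the probe itself where that was higher. The fit was tested on simulated data. Current gene names came from a RefSeq table (assembly GRCm38.p6), in which the accession matched 45 of the 58 collagen-pattern probes, the symbol 11, the gene ID 1 and an earlier symbol 1. Probe sequences came from the deposited table.

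Values are given for every cartilage chain, for types I, III and V, for any other chain called in either genotype, for called genes of the pathway lists, and for others with a role beside them. The members and lists were chosen with earlier results of these data known.

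Replicate numbers are shared between groups. After group means were removed, the 18 pairs of arrays with the same number had correlations of 0.153 to 0.390, and the 36 other pairs of -0.289 to 0.0825, which met the rule for pairing. The fits reported have no block and so do not use this pairing. Values with the replicate number as a block stand beside the results whose call they change. Alternatives used neqc values (offset 16) of the same probes or of all probes of the array, quantile values with no background step, subtraction of array medians, probes detected on at least 3 arrays, a joint fit of the 12 arrays, a block for the replicate number or for the number in the label code, the methods' t-test, calls with no fold limit, only the highest-mean probe of a gene, and omission of single arrays.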

Additional observations from a re-analysis of the deposited data

Results flagged for a closer look

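With the replicate number as a block, the injury change differed by genotype at 3 probes that the report names, by the test of the difference itself. These are part of 112 of all 21004 probes (0.533%) that passed under this block, 102 with a higher and 10 with a lower injury change in Mapk9 KO. The adjusted p-values (limma) were 0.0410 for Col24a1 ILMN_1253468, which fell less in Mapk9 KO and was detected on 1 of 3 WT injured arrays, 0.0329 for Sec23a and 0.0484 for the second probe of Sox5, which gave 0.20 in WT (adjusted p = 0.778) and rose by 2.00 in Mapk9 KO. Without the block the adjusted p-values were 0.338, 0.325 and 0.357. With the label code number as a block instead, 0 of all 21004 probes passed. The other probes of Col24a1 differed by 0.53 and 0.13 (adjusted p = 0.542 and 0.92 without the block).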

How the results depend on the processing

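The 5 genes that rose in WT became 3 with quantile normalization without background correction, 2 with neqc values of all probes of the array and 2 with the methods' t-test, and leaving out 1 array gave 3 to 6, with 3 without WT control replicate 2, WT injured replicate 1 or WT injured replicate 3. The 8 that fell became 5 with quantile normalization without background correction and 5 with the methods' t-test, and 7 to 11 with 1 array left out. Over all 21004 probes, 1586 were called higher and 1500 lower in WT. With quantile normalization without background correction these became 689 and 452, and with the methods' t-test 984 and 640. With neqc values they were 1327 and 976 of the 45281 probes of the array. With 1 array left out, 1471 to 1654 were higher and 1253 to 1800 lower. With the label code number as a block, Col6a2 (adjusted p = 0.0512) and Col8a2 lost their WT calls. In Mapk9 KO the 9 that rose became 7 with quantile normalization without background correction, 8 with the methods' t-test and 6 with the highest-mean probe per gene, and were 9 with any array left out, and the 8 that fell became 4 with quantile normalization without background correction, 13 without a fold limit and 8 to 10 with 1 array left out. The Mapk9 KO calls over all 21004 probes were 2015 higher and 1919 lower. These became 1709 and 1641 with the methods' t-test. With quantile normalization without background correction 835 were lower, and the higher calls dropped further than with the t-test. Without a fold limit 4058 were lower, and with 1 array left out 1846 to 2089 were. The highest-mean probes gave 1389 higher of 15424. The replicate block gave 1 gene with a higher interaction in place of 0, and the pairing changed no other collagen call than those given beside the results. Interaction and control genotype calls stayed at 0 with any array left out. The WT pathway genes ranged from 9 to 10 higher and 5 to 9 lower with 1 array left out. No result reversed. The cause was not tested.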

Other observations

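Sparc, a collagen-binding glycoprotein of bone and cartilage matrix, was in the list of processing and crosslinking genes and was not called after injury at any of its 4 probes. In control hips, however, its probe ILMN_1243212 was at 11.76 ± 0.35 (SD, n = 3) in WT and 8.58 ± 0.48 in Mapk9 KO, a difference of -3.17 (adjusted p = 0.00083 by limma), and in injured hips it was at 11.98 ± 0.58 and 8.80 ± 0.77. The other probes of Sparc differed between the control groups by 0.37, 0.34 and -0.33, with adjusted p-values between 0.928 and 0.951. Among the genes of the 5 collagen pathway lists, no other probe was called between the genotypes in control hips.

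Of 5 macrophage markers, 2 rose (Cd14 and Lyz2) and 2 fell (Adgre1 and Csf1r) in WT, and in Mapk9 KO Cd68 fell as well. The median change of the list was -0.78 in WT and -1.40 in Mapk9 KO, with Cd14 rising by 5.01 in WT. Its summed log2 level was higher after injury, 14.18 to 14.47 against 12.76 to 13.25 in WT control arrays and 14.29 to 14.72 against 13.09 to 13.44 in Mapk9 KO. Of 3 adipocyte markers, Cfd fell in WT and Cfd and Adipoq in Mapk9 KO, and the summed level of the list was 9.20 to 9.95 in WT injured and 11.18 to 12.73 in WT control arrays, and 8.72 to 9.41 against 12.21 to 13.76 in Mapk9 KO.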
